A study of Mus musculus with 2 samples.

Results

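The 35 genes described here encode the enzymes of glycolysis and the core of the cellular response to low oxygen. They were chosen as a named list and matched by symbol, and all 35 were found among the 55450 genes of both libraries. By role they comprise 17 glycolytic enzymes, 3 regulators of glycolytic flux, 4 genes of oxygen sensing and 11 targets of the hypoxia response. Together they held 472815 of 60289874 unique molecular identifiers (UMIs, 1 per captured transcript) in the kept cells of AKT1.MYC, or 0.784%, and 194060 of 38004526 in those of NRAS.MYC.ND, or 0.511%. Both groups were liver tumours of C57BL/6 mice that had received plasmids by hydrodynamic tail vein injection, a rapid injection of a large volume that transfects hepatocytes. In AKT1.MYC the mice received 10 µg of Akt1 plasmid, 10 µg of human c-Myc plasmid and 5 µg of Sleeping Beauty transposase plasmid, which inserts the others into the genome. In NRAS.MYC.ND they received 19 µg of human N-Ras plasmid, 1 µg of human c-Myc plasmid and 2 µg of the transposase plasmid. Tumours of week 14 were digested with enzymes, live cells were enriched, and droplet 3′ single-cell RNA libraries were made. MYC and the transposase were thus shared, the plasmid amounts differed along with the oncogene, and each group was 1 library, with the number of mice behind it not given.

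Glycolysis splits glucose into pyruvate, and lactate dehydrogenase turns pyruvate into lactate, which lets the pathway run without oxygen. When oxygen is short, the prolyl hydroxylases that mark hypoxia-inducible factors for destruction slow down, and the stabilised factors HIF-1α and HIF-2α, paired with ARNT, bind hypoxia response elements near their target genes. These targets include most glycolytic enzymes and genes of lipid storage, mitophagy, collagen modification and pH control. Normal hepatocytes make glucose as well as burn it and use liver forms of several enzymes, whereas proliferating and tumour cells of the liver commonly use the widespread forms. MYC and AKT signalling are also known to raise glycolytic genes and glucose uptake.

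The core of the hypoxia response element is ACGTG or GCGTG, which reads CACGT or CACGC on the other strand. The RefSeq promoter table (GRCm38.p6) held entries for 32 of the 35 genes, without Bnip3l, Epas1 and Ndrg1. The stretches shown come from 4 genes on which the results below turn, namely Hilpda and Pgam1, at least 2-fold higher in AKT1.MYC in all 7 cell classes compared, Pgk1, higher in 6 of them, and Bnip3, whose direction differed between classes. They run 5′ to 3′ on the gene's own strand and end at the base before the start, and capitals mark the core on either strand.
Hilpda: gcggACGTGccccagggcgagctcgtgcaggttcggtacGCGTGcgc
Pgam1: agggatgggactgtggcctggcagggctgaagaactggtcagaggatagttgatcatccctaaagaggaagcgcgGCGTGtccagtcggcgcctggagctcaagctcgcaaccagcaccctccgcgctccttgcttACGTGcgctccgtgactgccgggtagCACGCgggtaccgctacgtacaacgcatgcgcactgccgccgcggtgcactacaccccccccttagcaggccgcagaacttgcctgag
Pgk1: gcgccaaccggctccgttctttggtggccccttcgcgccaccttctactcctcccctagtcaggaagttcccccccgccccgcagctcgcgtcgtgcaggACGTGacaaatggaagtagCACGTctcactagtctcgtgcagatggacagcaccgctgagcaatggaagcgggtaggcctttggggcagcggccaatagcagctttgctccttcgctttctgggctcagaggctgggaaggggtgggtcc
Bnip3: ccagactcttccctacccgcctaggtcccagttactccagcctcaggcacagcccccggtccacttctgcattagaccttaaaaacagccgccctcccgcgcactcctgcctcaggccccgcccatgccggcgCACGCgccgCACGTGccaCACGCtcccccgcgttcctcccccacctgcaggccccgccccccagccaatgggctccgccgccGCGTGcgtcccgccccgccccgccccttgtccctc

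The Hilpda stretch is chr6:29272579-29272625 on the plus strand, the last 47 bases before the later of its 2 RefSeq starts, of which 30 lie in the first exon of a transcript from the earlier start. It holds 2 of the 3 matches of that 250-base window, and the window of the earlier start holds 0. The Pgam1 stretch is chr19:41911621-41911870 on the plus strand with 3 matches. The Pgk1 stretch is chrX:106186850-106187099 on the plus strand with 2 matches, 1 on each strand. The Bnip3 stretch is chr7:138909507-138909756 on the minus strand with 5 matches. A pair of these form CACGTG, the motif that MYC with MAX also binds and in which both strands match the core. Over all 49 windows of 250 bases for these genes, 41 (83.7%) held at least 1 core match, against 38.6% of all 32851 windows. Their mean GC content was 60.8%, against 53.2% over all windows, and its part in the difference was not tested. CACGTG stood in 6 of the 49 windows (12.2%), against 6.02% of all windows. A match is a string of letters in a window and does not show that a factor binds there.

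Cells were sorted into classes by marker genes that include none of the 35 genes. Counts were summed per class and library and are given as CPM, counts per 1e6 UMIs of that class. Ratios are log2 of AKT1.MYC over NRAS.MYC.ND with exact 95% intervals that cover counting error only. With 1 library per group there is no replicate check and no test, and a difference between the groups cannot be told apart from a difference between these libraries or animals. A gene counted as measured in a class where the libraries together held at least 10 of its UMIs. The fold used for all counts is 2. Some results also carry values under other processing. Scaling was by class total, and the alternatives were median of ratios and upper quartile scaling, each cell weighted equally, cells thinned to 1 depth per class, the most that free RNA could give subtracted, no removal of doublets, a stricter marker gate and classes from clusters. Ratios from thinned cells come from 1 random draw and have no interval for it. Levels and shares of thinned cells come from a second draw at the same depth, and the draws can differ where UMIs are few. Each 3′ UMI stands for 1 transcript whatever its length, so levels need no length correction, though capture can differ between genes.

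The AKT1.MYC library held 10766 barcodes and 64516171 UMIs, of which 9398 cells were kept at a median of 1987 UMIs, and the NRAS.MYC.ND library 6312 barcodes and 42416125 UMIs, of which 5634 were kept at a median of 4240 UMIs. Kept cells shared 13 barcode sequences across the libraries. The mouse Akt1 gene had 251 CPM in AKT1.MYC epithelial cells and 61.4 CPM in NRAS.MYC.ND epithelial cells, and Nras had 70.3 CPM in AKT1.MYC and 1438 CPM in NRAS.MYC.ND, in the direction of the labels. Myc had 111 CPM in AKT1.MYC and 136 CPM in NRAS.MYC.ND. The labels do not say whether transcripts of the human plasmids count toward the mouse genes, or from which species the Akt1 plasmid came. The 7 classes compared held 2086 epithelial cells, 3302 mononuclear phagocytes, 864 neutrophils, 354 endothelial cells, 665 fibroblasts, stellate cells and pericytes (fibroblasts for short), 107 T, NK and innate lymphoid cells and 136 erythroid cells in AKT1.MYC. In NRAS.MYC.ND they held 518 epithelial cells, 1496 phagocytes, 279 neutrophils, 805 endothelial cells, 58 fibroblasts, 1443 T, NK and innate lymphoid cells and 87 erythroid cells. The epithelial class is not the same mixture in both groups, since 10 duct markers summed to 13765 CPM in AKT1.MYC and 4976 CPM in NRAS.MYC.ND, and 10 hepatocyte markers to 4881 CPM in AKT1.MYC and 56162 CPM in NRAS.MYC.ND, with all 10 of each list detected in both. RNA free in the suspension also reaches every droplet. If it has the library's mean profile, the hepatocyte markers put the most it could be at 38.7% of that profile in AKT1.MYC phagocytes and 26.1% in NRAS.MYC.ND phagocytes. The most that free RNA could give means this limit throughout (by phagocyte markers in epithelial cells), which depends on the markers used and is not a strict maximum. The same estimate was 41.9% in AKT1.MYC neutrophils and 53.6% in NRAS.MYC.ND neutrophils, and 65.1% in AKT1.MYC erythroid cells and 18.5% in NRAS.MYC.ND erythroid cells. The duct markers, which are not used in that limit, summed to 1232 to 5068 CPM in the 6 other classes of AKT1.MYC and to 59.7 to 1417 CPM in those of NRAS.MYC.ND. Phagocyte markers were at 952 CPM in AKT1.MYC epithelial cells, put at 18.3% of the profile. In AKT1.MYC they summed to 1330 CPM in endothelial cells, 1447 CPM in fibroblasts, 2001 CPM in T, NK and innate lymphoid cells, 3112 CPM in neutrophils and 5061 CPM in erythroid cells. Taken as free RNA, they would raise the limit in all of these but fibroblasts, and in NRAS.MYC.ND only in erythroid cells. Whether they are free RNA was not tested.

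Most of the 35 genes stood higher in AKT1.MYC than in NRAS.MYC.ND, in tumour epithelium and in the cells around it. The cluster that held most cells of a class differed between the groups in all classes but fibroblasts and erythroid cells. The cluster with 96.9% of AKT1.MYC neutrophils held 0.358% of NRAS.MYC.ND neutrophils. The main cluster of AKT1.MYC phagocytes held 58.6% of them and 0.134% of NRAS.MYC.ND phagocytes. That of AKT1.MYC endothelial cells held 91.5% of them and 4.1% of NRAS.MYC.ND endothelial cells, and that of AKT1.MYC epithelial cells held 43.0% of them and 0 NRAS.MYC.ND epithelial cells. The main fibroblast cluster held 51.4% of AKT1.MYC fibroblasts and 51.7% of NRAS.MYC.ND fibroblasts. Of 245 combinations of gene and class, 221 were measured, and 167 of these ratios lay above 0 and 54 below. In 84 the AKT1.MYC level was 2 or more times that of NRAS.MYC.ND, and in 16 the reverse held. The 24 combinations under the minimum comprised 14 in erythroid cells, 5 in T, NK and innate lymphoid cells, 4 in neutrophils and 1 in fibroblasts. In 57 of the 84, the lower limit of the AKT1.MYC level lay above the most that free RNA could give there by the markers used, and so did all 16 in the other direction. This was so for 16 of 16 genes in epithelial cells, 8 of 11 in phagocytes, 13 of 15 in neutrophils, 7 of 11 in endothelial cells, 8 of 9 in fibroblasts, 4 of 8 in T, NK and innate lymphoid cells and 1 of 14 in erythroid cells.

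Class by class, the counts read differently against the background of all genes. In epithelial cells, 16 of 35 genes passed 2-fold toward AKT1.MYC, where 15.2% of all genes did, and 3 toward NRAS.MYC.ND, where 15% did. The interval of the ratio lay wholly past 2-fold for 14 of the 16 and for all 3. The median log2 ratio of the 35 genes was 0.98, against 0.14 over all genes. In endothelial cells 11 of 35 passed toward AKT1.MYC, with 10.1% of all genes, and 1 toward NRAS.MYC.ND, with 12.8%. The median was 0.47, against -0.12 over all genes. In phagocytes 11 of 35 passed toward AKT1.MYC, with 17.8% of all genes, and 1 toward NRAS.MYC.ND, with 9.2%. The median was 0.69, against 0.12 over all genes. In neutrophils 15 of 31 measured genes passed toward AKT1.MYC, but so did 32.5% of all genes there, and 2 passed toward NRAS.MYC.ND, with 8.79% of all genes. The median was 0.97, against 0.51 over all genes. Without doublet removal, 8 genes passed toward AKT1.MYC and the median was 0.35. The share of all genes was not computed under that setting, so this count has no background. The neutrophil classes also differed in their markers, of which all 10 were detected in both and which summed to 58414 CPM in AKT1.MYC and 234031 CPM in NRAS.MYC.ND. The 10 phagocyte markers, all detected, summed there to 3112 CPM in AKT1.MYC and 740 CPM in NRAS.MYC.ND, and the part of this in the neutrophil values was not tested. Among T, NK and innate lymphoid cells 8 of 30 passed toward AKT1.MYC, with 12.8% of all genes, and 1 toward NRAS.MYC.ND, with 13.8%, and the median was 0.30, against -0.07 over all genes. Fibroblasts were the mixed class, with 9 of 34 genes past 2-fold toward AKT1.MYC and 6 toward NRAS.MYC.ND, where 10.8% of all genes passed toward AKT1.MYC and 18% toward NRAS.MYC.ND. The median was 0.22, against -0.17 over all genes. The 10 markers of the class, all detected, summed to 31076 CPM in AKT1.MYC and 12865 CPM in NRAS.MYC.ND, and the 10 hepatocyte markers to 967 CPM in AKT1.MYC and 3893 CPM in NRAS.MYC.ND. Duct markers summed to 1573 CPM in AKT1.MYC fibroblasts and 1417 CPM in NRAS.MYC.ND fibroblasts, where the 5 other classes of NRAS.MYC.ND beside epithelial cells had 59.7 to 315 CPM. The part of these in the fibroblast values was not tested. In erythroid cells 14 of 21 passed toward AKT1.MYC, with 30.4% of all genes, and 2 toward NRAS.MYC.ND, with 18%, and the median was 1.78, against 0.38 over all genes.

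**Figure D1:**
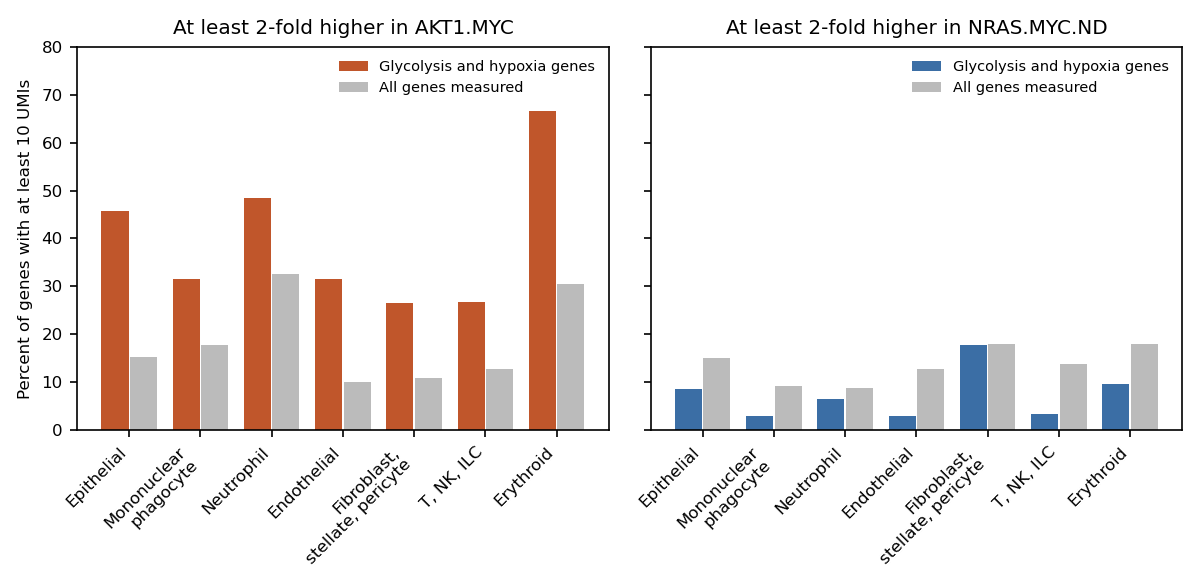
Bars give the percent of measured genes past 2-fold toward AKT1.MYC (left panel) or toward NRAS.MYC.ND (right panel) in each of 7 cell classes, for the 35 genes (coloured) and for all genes (grey). The share of the 35 genes higher in AKT1.MYC exceeds that of all genes in every class, from 26.5% in fibroblasts to 66.7% in erythroid cells.

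**Figure D2:**
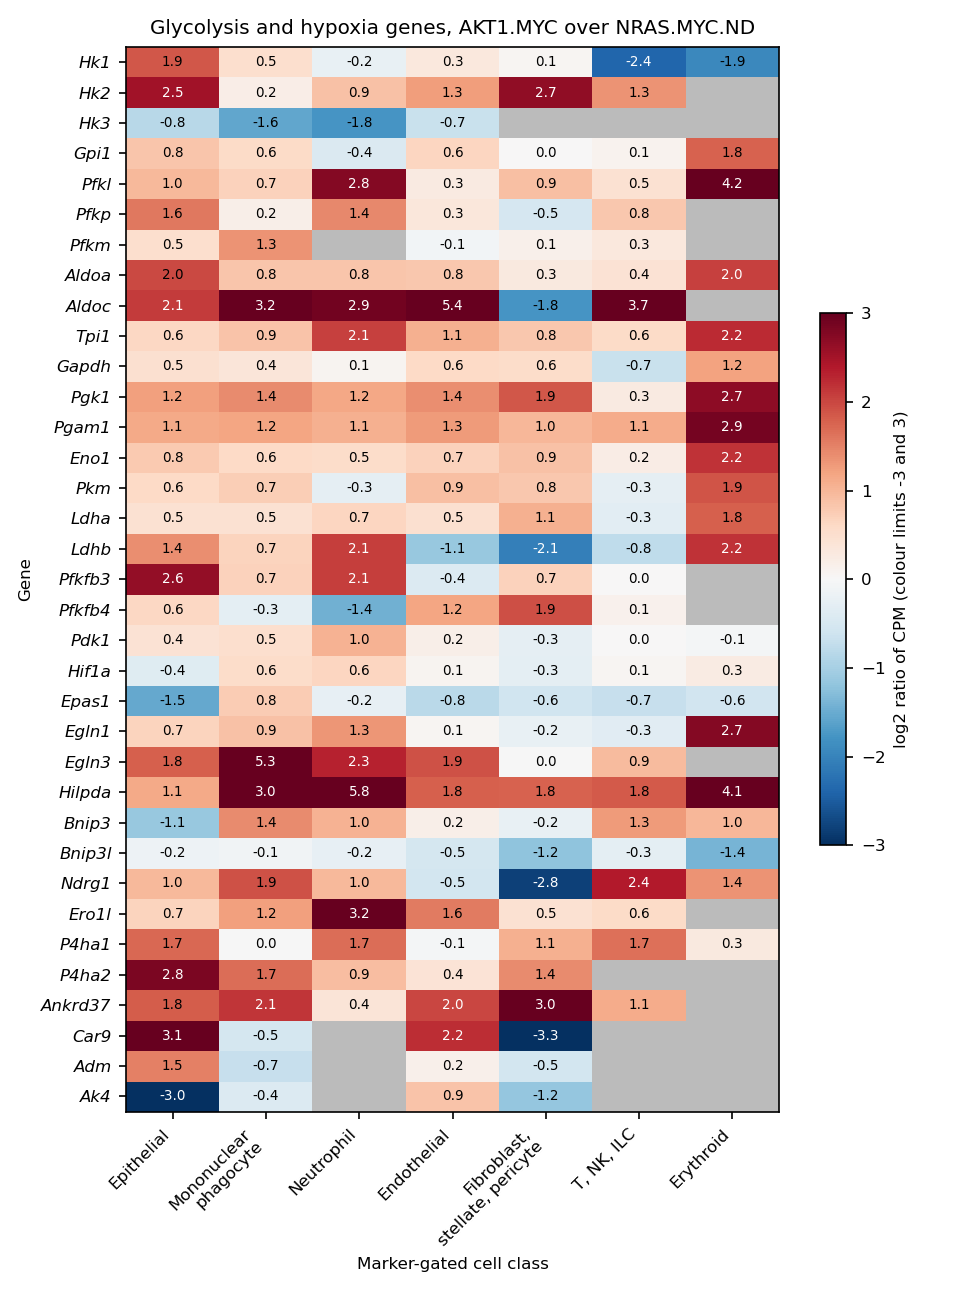
Log2 ratio of AKT1.MYC over NRAS.MYC.ND for each of the 35 genes (down the page, by role) in 7 cell classes (across), with unmeasured combinations in grey and colours limited at -3 and 3. Hilpda and Pgam1 are positive throughout, Bnip3l is negative throughout, and the fibroblast column holds the most genes past 2-fold in NRAS.MYC.ND.

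The glycolytic enzymes summed to 7426 CPM in AKT1.MYC epithelial cells and 4390 CPM in NRAS.MYC.ND epithelial cells. Their sums were 6793 CPM in AKT1.MYC phagocytes and 4415 CPM in NRAS.MYC.ND phagocytes, 6371 CPM in AKT1.MYC endothelial cells and 3783 CPM in NRAS.MYC.ND endothelial cells, 6282 CPM in AKT1.MYC neutrophils and 4991 CPM in NRAS.MYC.ND neutrophils and 5684 CPM in AKT1.MYC fibroblasts and 3620 CPM in NRAS.MYC.ND fibroblasts. Only in T, NK and innate lymphoid cells, among the 7 classes, was the sum lower in AKT1.MYC, at 4856 CPM against 5600 CPM in NRAS.MYC.ND. Scaling by upper quartile shifts every neutrophil log2 ratio by -0.39, which would reverse the log2 ratio of 0.33 between the neutrophil sums.

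The first step, the phosphorylation of glucose, is carried out by hexokinases. Hk2, the form bound to mitochondria in many tumours, had 72.7 CPM in AKT1.MYC fibroblasts and 11.4 CPM in NRAS.MYC.ND fibroblasts, a log2 ratio of 2.67 (1.67 to 3.89) on 339 UMIs in AKT1.MYC and 8 UMIs in NRAS.MYC.ND. Its level in phagocytes was 62.0 CPM in AKT1.MYC and 53.9 CPM in NRAS.MYC.ND, so that the fibroblast level was above the phagocyte level in AKT1.MYC and below it in NRAS.MYC.ND. In epithelial cells Hk2 was low in both, at 12.9 CPM in AKT1.MYC and 2.26 CPM in NRAS.MYC.ND. Hk1, the widespread form, had 15.2 CPM in AKT1.MYC and 4.18 CPM in NRAS.MYC.ND there, and in T, NK and innate lymphoid cells it had 7.74 CPM in AKT1.MYC (3 UMIs) and 40.4 CPM in NRAS.MYC.ND (205 UMIs), a log2 ratio of -2.39 (-4.68 to -0.82). Hk3, found mainly in myeloid cells, went the other way from most genes of the set. It had 12.3 CPM in AKT1.MYC phagocytes and 36.1 CPM in NRAS.MYC.ND phagocytes, a log2 ratio of -1.56 (-1.83 to -1.29), and 10.4 CPM in AKT1.MYC neutrophils and 35.9 CPM in NRAS.MYC.ND neutrophils. Together the hexokinases thus differed by form and by cell class.

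Gpi1, which isomerises glucose 6-phosphate, differed by less than 2-fold in 6 classes, with 374 CPM in AKT1.MYC epithelial cells and 211 CPM in NRAS.MYC.ND epithelial cells. Phosphofructokinase, the committed step, has liver, platelet and muscle forms named Pfkl, Pfkp and Pfkm. Pfkp had 52.2 CPM in AKT1.MYC epithelial cells and 17.4 CPM in NRAS.MYC.ND epithelial cells, a log2 ratio of 1.59 (1.29 to 1.89), which was 0.67 with each cell weighted equally and 0.93 with cells thinned to 1 depth. Pfkl had 93.7 CPM in AKT1.MYC and 47.7 CPM in NRAS.MYC.ND in these cells. In neutrophils Pfkl had 44.1 CPM in AKT1.MYC (76 UMIs) and 6.52 CPM in NRAS.MYC.ND (4 UMIs), a log2 ratio of 2.76 (1.34 to 4.67), and of 1.18 without doublet removal. Pfkm stayed at 12.6 CPM or less in every class and library.

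Aldolase cleaves fructose 1,6-bisphosphate. Aldoa (chr7:126795234-126800751, minus strand, GRCm38), the widespread form, had 816 CPM in AKT1.MYC epithelial cells and 207 CPM in NRAS.MYC.ND epithelial cells, a log2 ratio of 1.98 (1.90 to 2.07). In phagocytes, neutrophils and endothelial cells its log2 ratio was 0.81 to 0.83, and in fibroblasts 0.29 (0.12 to 0.46). Aldoc, the form typical of brain, had 49.0 CPM in AKT1.MYC epithelial cells and 11.5 CPM in NRAS.MYC.ND epithelial cells, a log2 ratio of 2.09 (1.74 to 2.47). It was at least 2-fold higher in AKT1.MYC in 5 of the 6 classes where it was measured, yet outside epithelial cells it stayed at 24.3 CPM or less, and in phagocytes, neutrophils and endothelial cells the AKT1.MYC level was not above what free RNA could give. In fibroblasts it had 7.08 CPM in AKT1.MYC and 24.3 CPM in NRAS.MYC.ND, where 5 of the 58 cells held 76.5% of its 17 UMIs. With each cell weighted equally that log2 ratio of -1.78 was -0.32. Tpi1, which interconverts the triose phosphates, had 312 CPM in AKT1.MYC neutrophils and 75 CPM in NRAS.MYC.ND neutrophils, a log2 ratio of 2.06 (1.62 to 2.52) that was 1.03 without doublet removal, 282 CPM in AKT1.MYC endothelial cells and 135 CPM in NRAS.MYC.ND endothelial cells, and 517 CPM in AKT1.MYC epithelial cells and 338 CPM in NRAS.MYC.ND epithelial cells.

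The later steps, which yield ATP, differed in size from gene to gene. Gapdh, the most abundant of the set, had 2394 CPM in AKT1.MYC epithelial cells and 1729 CPM in NRAS.MYC.ND epithelial cells, a log2 ratio of 0.47 (0.44 to 0.50). In neutrophils it had 1971 CPM in AKT1.MYC and 1869 CPM in NRAS.MYC.ND, with an interval that includes 0. In T, NK and innate lymphoid cells it was lower in AKT1.MYC, at 1643 CPM against 2611 CPM in NRAS.MYC.ND, a log2 ratio of -0.67 (-0.79 to -0.55). Pgk1 (chrX:106187100-106203699, plus strand), which makes the first ATP of the pathway, was at least 2-fold higher in AKT1.MYC in 6 of 7 classes. It had 607 CPM in AKT1.MYC endothelial cells and 231 CPM in NRAS.MYC.ND endothelial cells, a log2 ratio of 1.39 (1.30 to 1.49), and 395 CPM in AKT1.MYC fibroblasts and 109 CPM in NRAS.MYC.ND fibroblasts, a ratio of 1.86 (1.53 to 2.21). Only its ratio in T, NK and innate lymphoid cells fell short of 2-fold, at 310 CPM in AKT1.MYC and 255 CPM in NRAS.MYC.ND. Equal weight per cell put its epithelial ratio at 0.92, and the neutrophil ratio of 1.16 was 0.44 without doublet removal and 0.77 with upper quartile scaling.

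Pgam1 (chr19:41911923-41918660, plus strand), the mutase that follows, was past 2-fold in all 7 classes with a narrow spread outside erythroid cells. Its levels were 419 CPM in AKT1.MYC epithelial cells and 190 CPM in NRAS.MYC.ND epithelial cells, 512 CPM in AKT1.MYC phagocytes and 224 CPM in NRAS.MYC.ND phagocytes, 510 CPM in AKT1.MYC neutrophils and 241 CPM in NRAS.MYC.ND neutrophils, 328 CPM in AKT1.MYC endothelial cells and 135 CPM in NRAS.MYC.ND endothelial cells, 402 CPM in AKT1.MYC fibroblasts and 200 CPM in NRAS.MYC.ND fibroblasts, and 229 CPM in AKT1.MYC T, NK and innate lymphoid cells and 106 CPM in NRAS.MYC.ND T, NK and innate lymphoid cells. The log2 ratios in these classes ran from 1.01 to 1.28. Several of these lay under 2-fold by other processing. The neutrophil ratio of 1.08 was 0.96 with median of ratios scaling, 0.68 with upper quartile scaling, 0.93 with a stricter gate, 0.86 with classes from clusters and 0.42 without doublet removal. The fibroblast ratio of 1.01 was 0.94 with free RNA subtracted and 0.50 with cells thinned to 1 depth. The second draw gave 404 CPM in AKT1.MYC fibroblasts and 257 CPM in NRAS.MYC.ND fibroblasts, also under 2-fold. Thinning put the endothelial ratio at 0.96 in the first draw. The second gave 296 CPM in AKT1.MYC endothelial cells and 143 CPM in NRAS.MYC.ND endothelial cells, past 2-fold. Equal weight per cell put the phagocyte ratio at 0.99. Eno1, the next enzyme, stayed under 2-fold in those 6 classes, with 681 CPM in AKT1.MYC epithelial cells and 395 CPM in NRAS.MYC.ND epithelial cells.

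Pkm, which makes pyruvate, was under 2-fold in the 6 classes other than erythroid. It was higher in AKT1.MYC phagocytes, at 1016 CPM against 606 CPM in NRAS.MYC.ND phagocytes, and in endothelial cells, at 1219 CPM in AKT1.MYC against 653 CPM in NRAS.MYC.ND, and lower in AKT1.MYC neutrophils, at 800 CPM against 966 CPM in NRAS.MYC.ND neutrophils. The 3′ counts do not separate its M1 and M2 splice forms. Ldha, which forms lactate, was past 2-fold in fibroblasts, with 717 CPM in AKT1.MYC and 343 CPM in NRAS.MYC.ND, a log2 ratio of 1.06 (0.87 to 1.26). In epithelial cells it had 884 CPM in AKT1.MYC and 644 CPM in NRAS.MYC.ND, and in T, NK and innate lymphoid cells 529 CPM in AKT1.MYC and 660 CPM in NRAS.MYC.ND. The second draw of thinned cells turned the epithelial order of Ldha, at 777 CPM in AKT1.MYC and 822 CPM in NRAS.MYC.ND.

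Ldhb, the form that favours turning lactate back to pyruvate, did not follow Ldha. It was higher in AKT1.MYC epithelial cells, at 68.1 CPM against 25.9 CPM in NRAS.MYC.ND, a log2 ratio of 1.39 (1.15 to 1.64). That call was lost with each cell weighted equally (0.97) and in the first draw of cells thinned to 1 depth (0.67). In the second draw Ldhb had 65.5 CPM in AKT1.MYC epithelial cells and 30.0 CPM in NRAS.MYC.ND epithelial cells, past 2-fold. The mixture of hepatocyte-like and duct-like cells differs between the epithelial classes, so levels were also taken within cells that passed the hepatocyte or the duct marker gate. In the hepatocyte gate Ldhb had 36.2 CPM in AKT1.MYC and 7.19 CPM in NRAS.MYC.ND, and in the duct gate 69.0 CPM in AKT1.MYC and 44.8 CPM in NRAS.MYC.ND, which is under 2-fold. In endothelial cells it was lower in AKT1.MYC, at 19.7 CPM against 43.1 CPM in NRAS.MYC.ND, a ratio of -1.13 (-1.55 to -0.73, and under 2-fold with upper quartile scaling or equal weight per cell), and in fibroblasts it had 33.5 CPM in AKT1.MYC and 139 CPM in NRAS.MYC.ND, a ratio of -2.05 (-2.43 to -1.67). In the NRAS.MYC.ND fibroblasts 5 cells held 52.6% of its 97 UMIs.

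In erythroid cells Gpi1, Aldoa, Tpi1, Pgk1, Pgam1, Eno1, Pkm and Ldha had log2 ratios of 1.78 to 2.88, on 28 to 95 UMIs of each gene in each library. None of these 8 levels in AKT1.MYC was above what free RNA could give in that class. With free RNA subtracted, 8 genes of the whole set were still measured in erythroid cells, and their median was -0.36. They are not the same 8 genes. Eno1 and Pkm had 0 UMIs left in AKT1.MYC and are not among them, whereas Gapdh, Hilpda and Bnip3l are. At these counts the erythroid cells' own RNA was not separated from free RNA.

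Of the enzymes with several forms, Pkm made up 96.9% of pyruvate kinase UMIs in AKT1.MYC epithelial cells, against 96.5% in NRAS.MYC.ND, and Ldha 92.9% of lactate dehydrogenase UMIs in AKT1.MYC, against 96.1% in NRAS.MYC.ND. Within the hepatocyte gate, Pkm made up 96.4% in AKT1.MYC, against 91.0% in NRAS.MYC.ND, and Ldha 96.5% in AKT1.MYC, against 99.2% in NRAS.MYC.ND. Within the duct gate Pkm made up 96.9% in AKT1.MYC, against 98.2% in NRAS.MYC.ND, and the order of the Ldha shares turned, at 92.8% in AKT1.MYC, against 91.2% in NRAS.MYC.ND.

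Of the regulators of flux, Pfkfb3 and Pfkfb4 set the level of fructose 2,6-bisphosphate, the activator of phosphofructokinase. In neutrophils they stood in opposite order. Pfkfb3 had 61.5 CPM in AKT1.MYC (106 UMIs) and 14.7 CPM in NRAS.MYC.ND (9 UMIs), a log2 ratio of 2.07 (1.09 to 3.24), and Pfkfb4 had 29.0 CPM in AKT1.MYC and 78.3 CPM in NRAS.MYC.ND, a ratio of -1.43 (-2.03 to -0.83). In fibroblasts Pfkfb4 had 76 UMIs in AKT1.MYC, or 16.3 CPM, and 0 in NRAS.MYC.ND, which with a floor of 3 counts makes it at least 3.8-fold higher in AKT1.MYC. Pfkfb3 in epithelial cells had 15.2 CPM in AKT1.MYC and 2.44 CPM in NRAS.MYC.ND. Pdk1, the kinase that keeps pyruvate out of mitochondria, differed by less than 2-fold in the classes other than neutrophils and erythroid cells, with 29.9 CPM in AKT1.MYC epithelial cells and 22.1 CPM in NRAS.MYC.ND epithelial cells. In neutrophils it rested on 23 UMIs in AKT1.MYC and 4 UMIs in NRAS.MYC.ND. In erythroid cells it had 0 UMIs in AKT1.MYC, so its ratio there is only a bound from the floor.

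Among the genes of oxygen sensing, Hif1a, which encodes HIF-1α and is controlled mainly at the protein level, had log2 ratios from -0.36 in epithelial cells to 0.64 in neutrophils and passed 2-fold in no class as counted. With free RNA subtracted, its neutrophil ratio was 1.30, and with cells thinned to 1 depth its fibroblast ratio was -1.03 in the first draw. The second draw gave 95.4 CPM in AKT1.MYC fibroblasts and 128 CPM in NRAS.MYC.ND fibroblasts, which is under 2-fold. Its endothelial level was 170 CPM in AKT1.MYC and 160 CPM in NRAS.MYC.ND. In NRAS.MYC.ND that level stood apart from the other classes, whereas in AKT1.MYC its interval (155 to 185) overlapped that of neutrophils (135 to 172), which stood higher once cells were thinned, at 180 CPM against 166 CPM in endothelial cells. Epas1 (chr17:86753700-86833410, plus strand), which encodes HIF-2α, was also highest in endothelial cells, as is known of it, with 370.0 CPM in AKT1.MYC and 646 CPM in NRAS.MYC.ND, a log2 ratio of -0.81 (-0.90 to -0.71). In epithelial cells it had 24.6 CPM in AKT1.MYC and 71.0 CPM in NRAS.MYC.ND, a ratio of -1.53 (-1.70 to -1.35), or -0.93 in the first draw of cells thinned to 1 depth. The second draw gave 31.4 CPM in AKT1.MYC epithelial cells and 72.0 CPM in NRAS.MYC.ND epithelial cells, past 2-fold. At a fixed depth of 2036 UMIs per cell, 47.8% (42.0 to 53.7) of AKT1.MYC endothelial cells and 67.7% (64.3 to 71.1) of NRAS.MYC.ND endothelial cells had an Epas1 UMI, and before thinning 72.6% of the AKT1.MYC cells and 90.9% of the NRAS.MYC.ND cells did. Neutrophils, which should hold little of it, gave 1.28% in AKT1.MYC, against 1.22% in NRAS.MYC.ND, at 1146 UMIs, with median depths before thinning of 1797 UMIs in AKT1.MYC neutrophils and 1594 UMIs in NRAS.MYC.ND neutrophils, and of 6982 UMIs in AKT1.MYC endothelial cells and 7240 UMIs in NRAS.MYC.ND endothelial cells.

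Egln1, the main prolyl hydroxylase, had 58.9 CPM in AKT1.MYC epithelial cells and 37.2 CPM in NRAS.MYC.ND epithelial cells and 98.1 CPM in AKT1.MYC endothelial cells and 93.5 CPM in NRAS.MYC.ND endothelial cells. Egln3 (chr12:54178981-54203860, minus strand), the hydroxylase that HIF itself induces, was higher in AKT1.MYC in epithelial cells, at 52.1 CPM against 15 CPM in NRAS.MYC.ND, with a log2 ratio of 1.80 (1.49 to 2.13). It had 64.4 CPM in AKT1.MYC neutrophils and 13.0 CPM in NRAS.MYC.ND neutrophils, a ratio of 2.30 (1.28 to 3.55), and 28.5 CPM in AKT1.MYC endothelial cells and 7.53 CPM in NRAS.MYC.ND endothelial cells, a ratio of 1.92 (1.43 to 2.42). In fibroblasts the levels were alike, at 15.7 CPM in both, with an interval of -0.93 to 1.06. In phagocytes it had 18.3 CPM in AKT1.MYC, where free RNA could give up to 15.1 CPM, and 0.473 CPM in NRAS.MYC.ND, where free RNA could give up to 1.48 CPM.

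The 11 hypoxia targets differed by class. Their summed level was 1276 CPM in AKT1.MYC neutrophils and 347 CPM in NRAS.MYC.ND neutrophils, and 588 CPM in AKT1.MYC phagocytes and 248 CPM in NRAS.MYC.ND phagocytes. Hilpda alone made up 58.5% of the AKT1.MYC neutrophil sum and 50.9% of the AKT1.MYC phagocyte sum, and without it the sums were 530 CPM in AKT1.MYC neutrophils and 334 CPM in NRAS.MYC.ND neutrophils, and 289 CPM in AKT1.MYC phagocytes and 211 CPM in NRAS.MYC.ND phagocytes. The summed log2 ratio was thus 1.88 in neutrophils and 1.25 in phagocytes with Hilpda, and 0.66 in neutrophils and 0.45 in phagocytes without it. In T, NK and innate lymphoid cells the sum was 356 CPM in AKT1.MYC and 210 CPM in NRAS.MYC.ND. It was close between the groups in epithelial cells, at 477 CPM in AKT1.MYC and 438 CPM in NRAS.MYC.ND, and in endothelial cells, at 672 CPM in AKT1.MYC and 646 CPM in NRAS.MYC.ND. In fibroblasts the sum was lower in AKT1.MYC, at 518 CPM against 843 CPM in NRAS.MYC.ND, and also in erythroid cells, at 509 CPM against 674 CPM in NRAS.MYC.ND.

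Hilpda (chr6:29272488-29275446, plus strand), which inhibits the breakdown of stored triglyceride, was past 2-fold in all 7 classes, though in fibroblasts not beyond what free RNA could give. There it had 54.0 CPM (lower limit 47.6 CPM) in AKT1.MYC, where free RNA could give up to 48.2 CPM, and 15.7 CPM in NRAS.MYC.ND. Its log2 ratio of 1.78 in fibroblasts was 0.24 with free RNA subtracted. Thinned to 672 UMIs in each of the 58 NRAS.MYC.ND fibroblasts, it was 0.27 in the first draw. The second draw gave 105 CPM in AKT1.MYC and 25.7 CPM in NRAS.MYC.ND, so the thinned value is not settled. The epithelial ratio was 0.79 with free RNA subtracted. In neutrophils it had 746 CPM in AKT1.MYC (1285 UMIs) and 13.0 CPM in NRAS.MYC.ND (8 UMIs), a log2 ratio of 5.84 (4.85 to 7.05). The NRAS.MYC.ND value lies below the 16.9 CPM that free RNA could give, whereas the AKT1.MYC value lies far above its 67.7 CPM. In endothelial cells Hilpda had 94.2 CPM in AKT1.MYC and 27.2 CPM in NRAS.MYC.ND, a ratio of 1.79 (1.53 to 2.06), in T, NK and innate lymphoid cells 129 CPM in AKT1.MYC and 36.1 CPM in NRAS.MYC.ND, a ratio of 1.84 (1.36 to 2.30), and in epithelial cells 85.0 CPM in AKT1.MYC and 38.6 CPM in NRAS.MYC.ND, a ratio of 1.14 (0.94 to 1.34).

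Within AKT1.MYC, Hilpda was ordered with neutrophils first, then phagocytes at 299 CPM, while erythroid, T, NK and innate lymphoid, endothelial and epithelial cells had intervals that overlap with a neighbour, and fibroblasts stood lowest at 54.0 CPM. In NRAS.MYC.ND the top 5 of 10 classes lay between 27.2 and 38.9 CPM, with B cells first, and neutrophils stood near the bottom. The neutrophil class thus ranked 1 of 7 in AKT1.MYC and 7 of 10 in NRAS.MYC.ND.

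The Hilpda difference also held in the share of cells with a UMI at a fixed depth. In neutrophils thinned to 1146 UMIs, 32.7% (29.4 to 36.1) of AKT1.MYC cells and 2.03% (0.663 to 4.68) of NRAS.MYC.ND cells had one, and before thinning 39.9% of AKT1.MYC cells and 2.15% of NRAS.MYC.ND cells did. In phagocytes thinned to 761 UMIs, the shares were 16.9% (15.5 to 18.3) in AKT1.MYC and 1.76% (1.15 to 2.57) in NRAS.MYC.ND, and before thinning 36.7% in AKT1.MYC, against 17.0% in NRAS.MYC.ND. In endothelial cells, thinned to 2036 UMIs, they were 19.1% in AKT1.MYC, against 6.18% in NRAS.MYC.ND. In epithelial cells, thinned to 754 UMIs, they were 6.1% in AKT1.MYC, against 2.04% in NRAS.MYC.ND. No class is known to lack Hilpda, so these shares have no cell type that marks the background, and the lowest was 1.18% in NRAS.MYC.ND erythroid cells.

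Bnip3 and Bnip3l encode related receptors for the removal of mitochondria. Bnip3 (chr7:138890836-138909519, minus strand) was lower in AKT1.MYC epithelial cells, at 71.0 CPM against 156 CPM in NRAS.MYC.ND, a log2 ratio of -1.14 (-1.25 to -1.03). It was higher in AKT1.MYC phagocytes, at 60.8 CPM against 22.6 CPM in NRAS.MYC.ND, a ratio of 1.43 (1.23 to 1.63), and in neutrophils, at 124 CPM against 60.3 CPM in NRAS.MYC.ND, a ratio of 1.04 (0.53 to 1.59), which was 0.71 without doublet removal and 0.93 and 0.65 with the 2 other scalings. The epithelial difference held within the hepatocyte gate, at 101 CPM in AKT1.MYC and 219 CPM in NRAS.MYC.ND, and was smaller in the duct gate, at 66.8 CPM in AKT1.MYC and 106 CPM in NRAS.MYC.ND. Bnip3l had a ratio below 0 in all 7 classes as counted, though in neutrophils it was 0.0039 with free RNA subtracted. In the second draw of thinned epithelial cells Bnip3l stood higher in AKT1.MYC, at 143 CPM against 126 CPM in NRAS.MYC.ND. Bnip3l passed 2-fold in fibroblasts, with 99.7 CPM in AKT1.MYC and 232 CPM in NRAS.MYC.ND, but not with either other scaling, equal weight per cell or the first draw of thinned cells. In the second draw its fibroblast levels were 100 CPM in AKT1.MYC and 231 CPM in NRAS.MYC.ND. It also passed 2-fold in erythroid cells, where it is known to clear mitochondria during maturation, with 228 CPM in AKT1.MYC and 600 CPM in NRAS.MYC.ND, a ratio of -1.40 (-1.95 to -0.89).

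Ndrg1, a stress-induced gene of differentiation, had 26.3 CPM in AKT1.MYC phagocytes and 7.02 CPM in NRAS.MYC.ND phagocytes, a log2 ratio of 1.90 (1.56 to 2.26), and free RNA could give up to 22.1 CPM in AKT1.MYC and 14.1 CPM in NRAS.MYC.ND. In epithelial cells it had 67.5 CPM in AKT1.MYC and 34.3 CPM in NRAS.MYC.ND. In fibroblasts it was lower in AKT1.MYC, at 45.3 CPM against 318 CPM in NRAS.MYC.ND, a ratio of -2.81 (-3.09 to -2.53). Of the 58 NRAS.MYC.ND cells in that class, 29 held its 222 UMIs and 5 held 35.6% of them, against 141 of 665 cells in AKT1.MYC.

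Ero1l oxidises proteins in the endoplasmic reticulum, and P4ha1 and P4ha2 hydroxylate collagen. Ero1l had 117 CPM in AKT1.MYC neutrophils (201 UMIs) and 13.0 CPM in NRAS.MYC.ND neutrophils (8 UMIs), a log2 ratio of 3.16 (2.15 to 4.39). It had 64.7 CPM in AKT1.MYC endothelial cells and 22.1 CPM in NRAS.MYC.ND endothelial cells and 35.6 CPM in AKT1.MYC phagocytes and 15.1 CPM in NRAS.MYC.ND phagocytes. P4ha2 was higher in AKT1.MYC epithelial cells, at 28.2 CPM against 4.0 CPM in NRAS.MYC.ND, a ratio of 2.82 (2.22 to 3.48). In fibroblasts, the main collagen makers, P4ha1 had 105 CPM in AKT1.MYC and 50.1 CPM in NRAS.MYC.ND and P4ha2 had 46.1 CPM in AKT1.MYC and 17.2 CPM in NRAS.MYC.ND, both past 2-fold with intervals that include it. With cells thinned to 1 depth P4ha2 had a ratio of -0.65 in the first draw. In the second draw it had 45.2 CPM in AKT1.MYC and 25.7 CPM in NRAS.MYC.ND, so the draws differ in direction. In phagocytes P4ha1 had 40.1 CPM in AKT1.MYC and 40.6 CPM in NRAS.MYC.ND.

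Ankrd37, a small ankyrin-repeat protein induced by HIF-1, had 30.4 CPM in AKT1.MYC endothelial cells and 7.53 CPM in NRAS.MYC.ND endothelial cells, a log2 ratio of 2.01 (1.53 to 2.51). Car9, the cell-surface carbonic anhydrase that exports acid, had 22.4 CPM in AKT1.MYC epithelial cells and 2.61 CPM in NRAS.MYC.ND epithelial cells, a ratio of 3.10 (2.37 to 3.95) on 722 UMIs in AKT1.MYC and 15 UMIs in NRAS.MYC.ND. The first draw of thinned cells put it at 0.77, on at most 3 counts in NRAS.MYC.ND. In the second draw it had 27.2 CPM in AKT1.MYC and 0 CPM in NRAS.MYC.ND. In fibroblasts it was lower in AKT1.MYC, at 3.43 CPM (16 UMIs) against 32.9 CPM in NRAS.MYC.ND (23 UMIs, 5 cells holding 65.2% of them). Adm, a vasodilator peptide, was found mainly in endothelial cells and fibroblasts of both groups, with 69.9 CPM and 43.3 CPM in AKT1.MYC, against 62.5 CPM and 63.0 CPM in NRAS.MYC.ND. Ak4, a mitochondrial adenylate kinase, had 2.42 CPM in AKT1.MYC epithelial cells and 19.8 CPM in NRAS.MYC.ND epithelial cells, a ratio of -3.03 (-3.47 to -2.61), and 3.22 CPM in AKT1.MYC and 35.5 CPM in NRAS.MYC.ND in the hepatocyte gate.

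**Figure D3:**
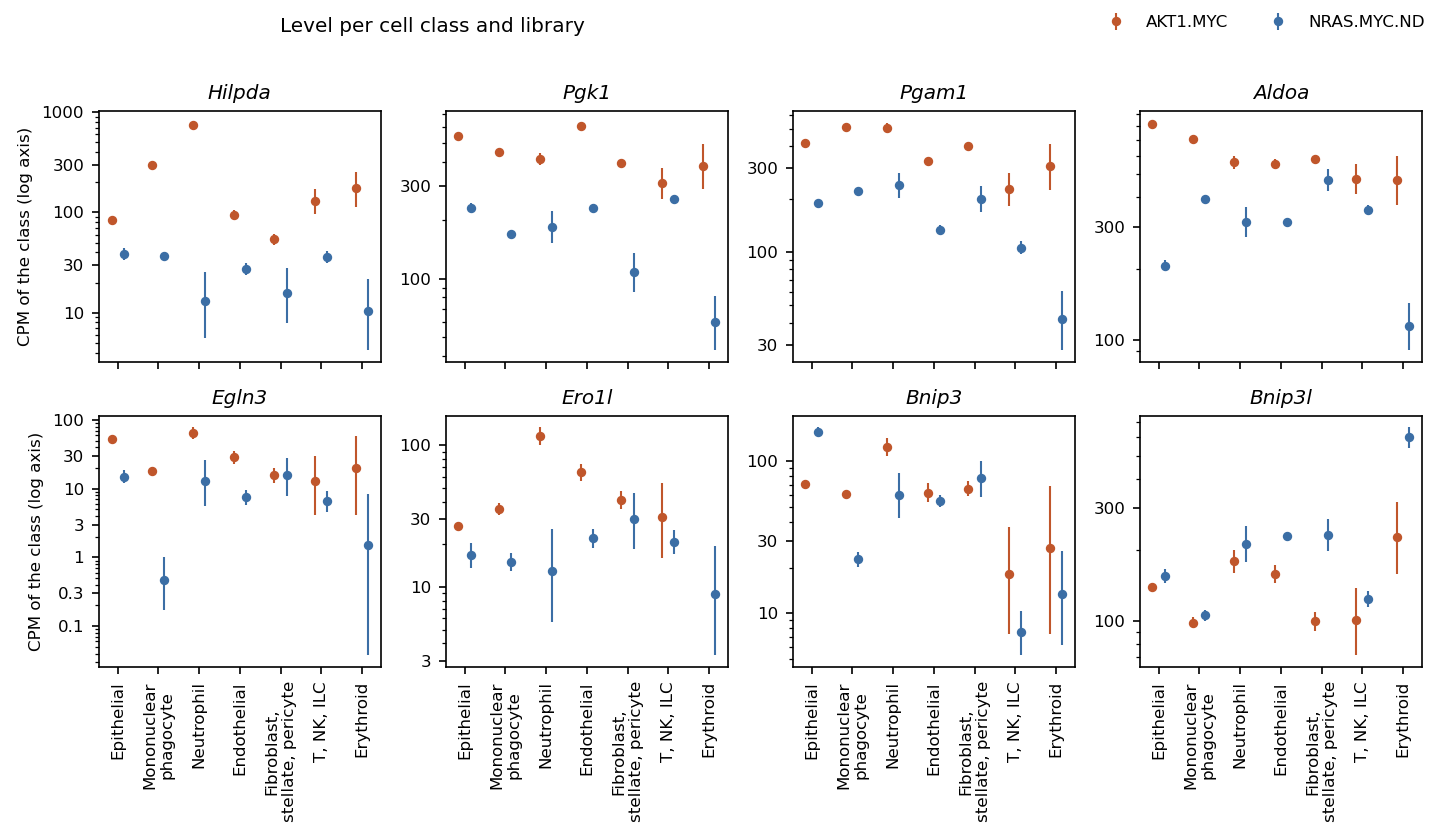
Points give the CPM (log axis) of 8 genes in each of 7 cell classes of AKT1.MYC (orange) and NRAS.MYC.ND (blue), and bars are exact 95% Poisson intervals; a level of 0 has no point. Hilpda in neutrophils stands at 746 CPM in AKT1.MYC and 13.0 CPM in NRAS.MYC.ND, and Bnip3l stands lower in AKT1.MYC in every class.

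Cells were also sorted by further markers into 13 sub-gates with at least 30 cells in each library. The epithelial sub-gates overlap, since the same cells were cut once by cycling genes and once by the hepatocyte and duct gates. Hilpda was past 2-fold toward AKT1.MYC in 12 of 13 sub-gates, with log2 ratios of 0.90 to 5.23, Aldoc in 12, Egln3 in 11, and Pgk1 and Pgam1 in 10 each, while Hif1a was past 2-fold in 0. These counts by gene used no minimum of UMIs. The Aldoc level of AKT1.MYC phagocytes, neutrophils and endothelial cells was not above what free RNA could give. Among phagocytes, Hilpda had 362 CPM in AKT1.MYC monocytes and 19.3 CPM in NRAS.MYC.ND monocytes, 272 CPM in AKT1.MYC C1q macrophages and 23.3 CPM in NRAS.MYC.ND C1q macrophages, and 314 CPM in AKT1.MYC Kupffer cells and 54.7 CPM in NRAS.MYC.ND Kupffer cells, the resident macrophages of the liver. Kupffer cells had 11 of 34 genes past 2-fold toward AKT1.MYC, with 13.3% of all genes, and 2 toward NRAS.MYC.ND, with 9.44%. Monocytes had 14 of 34 toward AKT1.MYC, with 13.9%, and 1 toward NRAS.MYC.ND, with 10.7%, and C1q macrophages 11 of 35 toward AKT1.MYC, with 18.4%, and 2 toward NRAS.MYC.ND, with 7.72%. Kupffer cells had the highest Hilpda level of the 3 in NRAS.MYC.ND and the middle level in AKT1.MYC.

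In mature neutrophils it had 753 CPM in AKT1.MYC and 20.1 CPM in NRAS.MYC.ND, and the immature neutrophils, 26 cells in AKT1.MYC and 50 cells in NRAS.MYC.ND, were too few to compare. The mature cells had 14 of 31 genes past 2-fold toward AKT1.MYC, but so did 28.3% of all genes, and 2 toward NRAS.MYC.ND, with 10.2%. Vascular endothelial cells had 11 of 33 measured genes past 2-fold toward AKT1.MYC, with 9.67% of all genes, and 0 toward NRAS.MYC.ND, with 12.6%. The sinusoidal cells (68 in AKT1.MYC, 408 in NRAS.MYC.ND) had 4 of 30 toward AKT1.MYC, near the 9% of all genes, and 1 toward NRAS.MYC.ND, with 11.4%. The medians were 0.49 in vascular and 0.43 in sinusoidal cells, against -0.11 and -0.06 over all genes. Epas1 in sinusoidal cells had 307 CPM in AKT1.MYC and 670 CPM in NRAS.MYC.ND, a log2 ratio of -1.12 (-1.35 to -0.91), and 419 CPM in AKT1.MYC vascular cells and 608 CPM in NRAS.MYC.ND vascular cells, a ratio of -0.54 (-0.65 to -0.42).

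In epithelial cells that passed the gate for cycling genes, 17 of 33 genes were past 2-fold toward AKT1.MYC, with 15% of all genes, and 3 toward NRAS.MYC.ND, with 14.1%. In those with no cycling gene 17 of 35 passed toward AKT1.MYC, with 16.5% of all genes, and 2 toward NRAS.MYC.ND, with 12.6%. The hepatocyte gate had 20 of 33 toward AKT1.MYC, with 24.7% of all genes, and 3 toward NRAS.MYC.ND, with 12%, and a median log2 ratio of 1.24, against 0.39 over all genes. The duct gate had 15 of 34 toward AKT1.MYC, with 10.9% of all genes, and 2 toward NRAS.MYC.ND, with 14.9%, and a median of 0.85, against -0.03 over all genes. Cells that passed both gates had 20 of 33 toward AKT1.MYC, with 20.2% of all genes, and 3 toward NRAS.MYC.ND, with 13.2%, and a median of 1.34, against 0.23. CD8 T cells (42 cells in AKT1.MYC, 1056 in NRAS.MYC.ND) had 9 of 26 toward AKT1.MYC, with 16.2% of all genes, and 2 toward NRAS.MYC.ND, with 14.5%. The other T, NK and innate lymphoid cells had 4 of 26 toward AKT1.MYC, with 9.6%, and 3 toward NRAS.MYC.ND, with 17.3%.

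**Figure D4:**
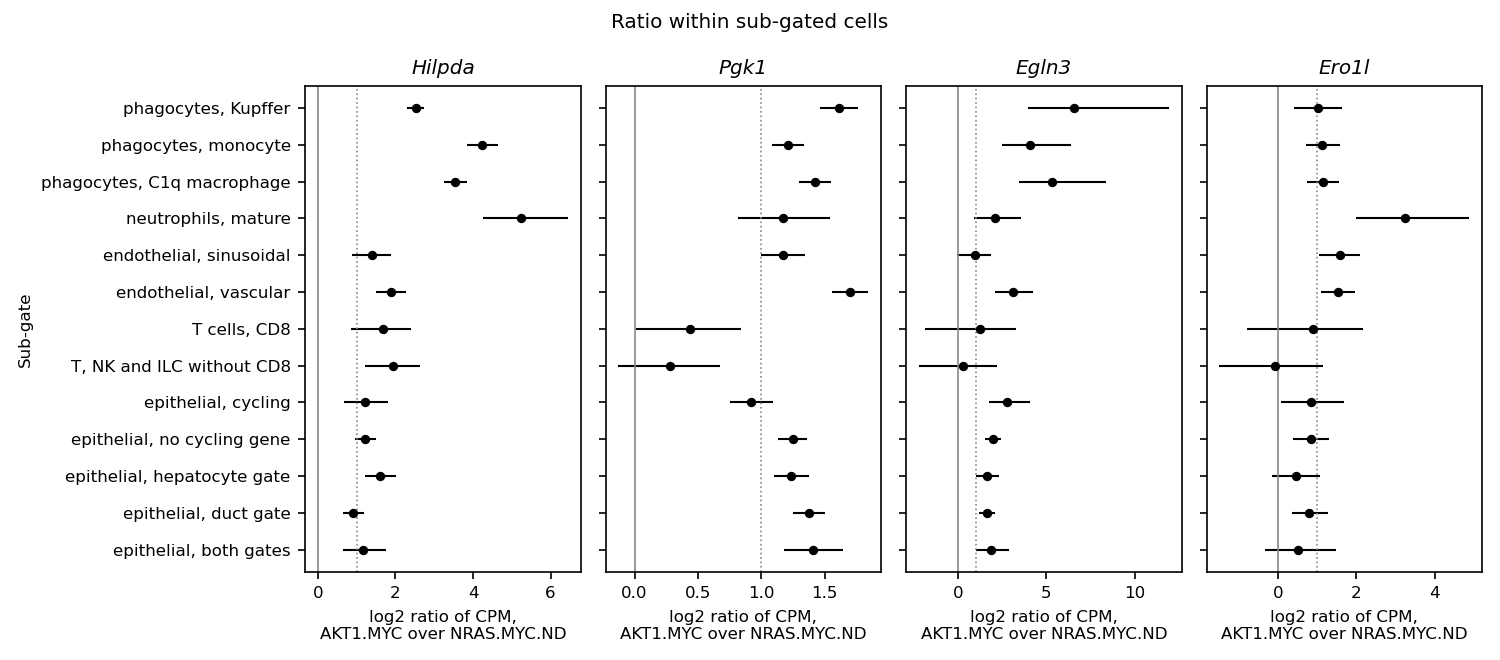
Points give the log2 ratio of AKT1.MYC over NRAS.MYC.ND for Hilpda, Pgk1, Egln3 and Ero1l in 13 sub-gates, bars are exact 95% intervals, and lines mark equal levels (solid) and a 2-fold difference (dotted). Hilpda lies above 0 in all 13, from 0.90 in the duct gate to 5.23 in mature neutrophils.

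Correlations of the glycolytic enzymes across single cells stood higher in AKT1.MYC than in NRAS.MYC.ND in the 3 classes examined. With every cell thinned to 4000 UMIs, the median Spearman rho over 36 pairs of 9 abundant enzymes was 0.29 in 1292 AKT1.MYC epithelial cells and 0.13 in 287 NRAS.MYC.ND epithelial cells. It was 0.24 in 243 AKT1.MYC endothelial cells and 0.07 in 651 NRAS.MYC.ND endothelial cells, and at 2000 UMIs 0.18 in 1646 AKT1.MYC phagocytes and 0.07 in 1350 NRAS.MYC.ND phagocytes. Hilpda with those enzymes gave a median rho of 0.02 in AKT1.MYC epithelial cells, 0.06 in AKT1.MYC endothelial cells and 0.09 in AKT1.MYC phagocytes. The cells of a library share its depth, free RNA and mixture of cell states, so these correlations are descriptions without a test, and sparser genes give lower rho.

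Other genes of the pathway were counted by the same rules from 6 lists. In epithelial cells 1 of the 6 genes of gluconeogenesis, the making of glucose, was past 2-fold toward AKT1.MYC and 3 toward NRAS.MYC.ND. Of all genes there, 15.2% passed toward AKT1.MYC and 15% toward NRAS.MYC.ND. Pck1, its rate-limiting enzyme, had 4.75 CPM in AKT1.MYC and 171 CPM in NRAS.MYC.ND, Fbp1 13.5 CPM in AKT1.MYC and 91.2 CPM in NRAS.MYC.ND, and Pcx 6.18 CPM in AKT1.MYC and 63.7 CPM in NRAS.MYC.ND. These are also hepatocyte genes and move with the hepatocyte markers given above, and their part in the result was not tested. Of the 13 other glycolytic enzymes measured in these cells, 3 passed toward AKT1.MYC (15.2% of all genes) and 3 toward NRAS.MYC.ND (15%). Of those higher in AKT1.MYC, Bpgm had 42.5 CPM in AKT1.MYC and 12.2 CPM in NRAS.MYC.ND.

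Among transporters, Slc16a3, the lactate exporter of glycolytic cells, had 23.8 CPM in AKT1.MYC epithelial cells and 1.04 CPM in NRAS.MYC.ND epithelial cells, 45.6 CPM in AKT1.MYC endothelial cells and 6.12 CPM in NRAS.MYC.ND endothelial cells, and 37.9 CPM in AKT1.MYC phagocytes and 11.8 CPM in NRAS.MYC.ND phagocytes. Slc16a1, which carries lactate in either direction, had 11.6 CPM in AKT1.MYC fibroblasts and 232 CPM in NRAS.MYC.ND fibroblasts. In neutrophils Slc2a3, their main glucose carrier, was lower in AKT1.MYC, at 85.3 CPM against 444 CPM in NRAS.MYC.ND, and Bsg, the partner of lactate carriers, had 542 CPM in AKT1.MYC and 114 CPM in NRAS.MYC.ND. Control of pyruvate dehydrogenase showed Pdk3 at 23.3 CPM in AKT1.MYC epithelial cells and 6.96 CPM in NRAS.MYC.ND epithelial cells and Pdk4 at 3.42 CPM in AKT1.MYC epithelial cells and 29.7 CPM in NRAS.MYC.ND epithelial cells. Of its 7 genes, 1 was past 2-fold toward AKT1.MYC (15.2% of all genes) and 2 toward NRAS.MYC.ND (15%).

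Partners of the oxygen-sensing machinery, such as Vhl, Arnt and Egln2, had 0 genes past 2-fold in either direction in epithelial cells (9 measured), phagocytes (7), endothelial cells (7) and fibroblasts (8). In neutrophils 2 of 7 passed toward AKT1.MYC, with 32.5% of all genes, and in erythroid cells 1 of 6, with 30.4%. In T, NK and innate lymphoid cells 1 of 7 passed toward NRAS.MYC.ND, with 13.8% of all genes. Of the other genes induced by hypoxia, 7 of 23 measured in epithelial cells passed 2-fold toward AKT1.MYC (15.2% of all genes), and 11 of 22 in phagocytes (17.8%). The counts were 9 of 15 in neutrophils (32.5%), 8 of 22 in endothelial cells (10.1%) and 9 of 21 in fibroblasts (10.8%). They were 7 of 17 in T, NK and innate lymphoid cells (12.8%) and 6 of 10 in erythroid cells (30.4%). Toward NRAS.MYC.ND, 3 passed in epithelial cells (15%), 0 in phagocytes (9.2%), 0 in neutrophils (8.79%) and 2 in endothelial cells (12.8%). In fibroblasts 2 passed that way (18%), in T, NK and innate lymphoid cells 1 (13.8%) and in erythroid cells 3 (18%). In neutrophils Fam162a, a mitochondrial protein, had 103 CPM in AKT1.MYC and 24.5 CPM in NRAS.MYC.ND and Bhlhe40, a transcriptional repressor, 163 CPM in AKT1.MYC and 57.1 CPM in NRAS.MYC.ND. In endothelial cells Stc2, a secreted glycoprotein, had 34.0 CPM in AKT1.MYC and 2.81 CPM in NRAS.MYC.ND and Angptl4, an inhibitor of lipoprotein lipase, 45 CPM in AKT1.MYC and 5.74 CPM in NRAS.MYC.ND. In fibroblasts Lox, which cross-links collagen, had 458 CPM in AKT1.MYC and 124 CPM in NRAS.MYC.ND.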

How the data were processed

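Tumour tissue of each group gave 1 droplet library (Chromium 3′ kit, version 2 chemistry, per the labels' protocols). The authors deposited raw UMI counts per gene and cell, made with Cell Ranger on mm10; the file headers name version 6.1.1 and the submitters' processing notes 6.1.2. Barcodes under 500 UMIs or 250 genes, or with over 20% of UMIs from mitochondrial genes, were dropped (456 in AKT1.MYC, 351 in NRAS.MYC.ND). The automatic threshold of Scrublet in scanpy 1.11.5 marked no cell, so the highest scores were removed up to 0.8% per 1000 barcodes (912 cells in AKT1.MYC, 327 in NRAS.MYC.ND). A cell entered a class with at least 3 of its markers, at least 4 times the level free RNA gives and 2 times the lead over the next class, which placed 80.5% of kept AKT1.MYC cells and 92.6% of kept NRAS.MYC.ND cells. Of 114 markers 113 matched.

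From the summed counts, CPM had exact Poisson intervals, ratios exact conditional binomial intervals and shares exact Clopper-Pearson intervals (95%, scipy 1.17.1). UMIs of 1 library are not separate animals, so the intervals cover counting error only. A count of 0 was replaced by a floor of 3 counts for the class sum. The ratio and its interval were tested on simulated counts, and the other steps were not. The free RNA limit used hepatocyte markers (phagocyte markers for epithelial cells). Coordinates came from GENCODE vM21 and promoters from RefSeq. Genes were given in full where they had at least 30 UMIs, at least 20 CPM and an interval that excludes 2-fold, and others where the order of roles asked for them. The 35 genes, the other lists and the markers were chosen with earlier results of these data known, and the single-cell correlations were added after seeing the data. The 12 alternatives are listed with their effects at the end. Classes with under 50 cells in either library were not compared.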

Additional observations from a re-analysis of the deposited data

Results flagged for a closer look

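Among combinations of gene and class with at least 30 UMIs and at least 20 CPM in the higher library, 5 genes passed 2-fold upward in some classes and downward in others. None of these differences between classes was tested, since each group is 1 library. Aldoc had log2 ratios of AKT1.MYC over NRAS.MYC.ND of 2.09 in epithelial cells and -1.78 in fibroblasts. Bnip3 had 1.43 in phagocytes and 1.04 in neutrophils against -1.14 in epithelial cells. Car9 had 3.10 in epithelial cells and -3.26 in fibroblasts. Ldhb had 1.39 in epithelial cells and 2.07 in neutrophils against -1.13 in endothelial cells and -2.05 in fibroblasts. Ndrg1 had 1.90 in phagocytes and -2.81 in fibroblasts. Below those minimums, Hk1 (1.87 in epithelial cells, -2.39 in T, NK and innate lymphoid cells) and Pfkfb4 (at least 1.92 in fibroblasts, -1.43 in neutrophils) also passed both ways. In 4 of the 5 genes a downward class was fibroblasts, where in the 58 NRAS.MYC.ND cells between 35.6% and 76.5% of a gene's UMIs came from 5 cells. Ldhb was also downward in endothelial cells, 354 of them in AKT1.MYC and 805 of them in NRAS.MYC.ND. Bnip3 was downward in epithelial cells, 2086 of them in AKT1.MYC and 518 of them in NRAS.MYC.ND.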

How the results depend on the processing

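Over 44 combinations of gene and class described in full, 519 values under 12 alternatives (mitochondrial limit, depth filter, no doublet removal, a stricter gate, classes from clusters, 2 other scalings, cells weighted equally, thinned cells, free RNA subtracted and 2 UMI minimums) gave 427 that stayed within counting error, 89 that moved beyond it and 3 that changed sign. In 41 combinations the direction held under every alternative that gave a value, and in 32 the 2-fold difference did too. Alternatives without a value were left out of these counts. With free RNA subtracted, erythroid Eno1 and Pkm had 0 UMIs left in AKT1.MYC and gave no ratio. Both still count among the 41, and Eno1 among the 32. The 3 that changed sign were erythroid genes with free RNA subtracted, Aldoa at -0.50, Tpi1 at -0.55 and Ldha at -0.23. Aldoa and Ldha then had 0 UMIs left in AKT1.MYC, so their values are bounds from the floor. The erythroid median was then -0.36, which lies between these bounds.

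The median log2 ratio ran from 0.84 to 0.98 in epithelial cells, 0.59 to 0.71 in phagocytes, 0.38 to 0.60 in endothelial cells, 0.07 to 0.49 in fibroblasts, 0.08 to 0.51 in T, NK and innate lymphoid cells, 0.35 to 1.27 in neutrophils and -0.36 to 3.13 in erythroid cells. Without doublet removal the neutrophil median was 0.35 and 8 genes were at least 2-fold higher in AKT1.MYC. Thinning, in its first random draw, left 1 epithelial gene higher in NRAS.MYC.ND and 6 endothelial genes higher in AKT1.MYC. Subtracting free RNA gave 4 phagocyte genes higher in NRAS.MYC.ND. Upper quartile scaling and equal weight per cell each gave 0 endothelial genes higher in NRAS.MYC.ND. The share of all genes past 2-fold was not computed under these alternatives, so the counts have no background. The causes were not tested. Median of ratios and upper quartile scaling moved the median of all genes by 0.27 and 0.24 in fibroblasts, -0.12 and -0.39 in neutrophils and -0.92 and -0.58 in erythroid cells, and by 0.14 or less elsewhere. Epithelial Car9 ran from 0.77 to 3.49 and neutrophil Hilpda from 4.84 to 7.16. The 0.77 is from the first draw of thinned cells, and the second draw held 0 Car9 UMIs in NRAS.MYC.ND epithelial cells. No paired analysis was possible because each group is 1 library, and no replicate could be left out. Depth limits the AKT1.MYC erythroid cells (149383 UMIs) and T, NK and innate lymphoid cells (387778 UMIs) most.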
